A study of Mus musculus with 12 samples.

Results

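Mitochondrial fusion and fission genes are the nuclear genes whose products join and divide mitochondria. The 9 genes described here were chosen by name: *Mfn1*, *Mfn2*, *Opa1* and *Oma1* on the fusion side, and *Dnm1l*, *Fis1*, *Mff*, *Mief1* and *Mief2* on the fission side. They are 9 of the 24453 genes in the count table, and all 9 were among the 14026 genes with enough counts to be tested. The study asked how the loss of PNPase, the product of *Pnpt1*, and the loss of mtDNA change gene expression in mouse embryonic fibroblasts (MEFs). RNA of 4 MEF lines was sequenced, with 3 biological replicates per line. All 4 lines were of strain C57BL6/J, were labelled with the genotype Pnpt1 neo-flox/neo-flox and grew with uridine at 50 µg/mL. TM6 was the parental line, immortalized with a viral T-antigen and given no further treatment. The rho0 line was TM6 cultured with ditercalinium dichloride dihydrochloride at 750 ng/mL for 3 weeks and then grown out of a single cell, and was labelled mtDNA-deficient. PKO-1 and PKO-6 were PNPase knockout lines, each grown from a single TM6 cell after Adenoviral-Cre had excised exon 2 of *Pnpt1*. The title of the series gives loss of mtDNA as an outcome of the knockout, so comparisons of the clones with rho0 are not taken as lines with mtDNA against a line without. Genes encoded by mtDNA were not analysed here. The rho0, PKO-1 and PKO-6 lines are thus 1 clone each, and the spread between replicates is that between cultures of a clone.

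Mitochondria form a network that is remodelled by large GTPases of the dynamin family. The mitofusins Mfn1 and Mfn2 fuse outer membranes, and Opa1 fuses inner membranes and shapes cristae, while the protease Oma1 cleaves Opa1 when the membrane potential falls, which slows fusion. Drp1, encoded by *Dnm1l*, is drawn from the cytosol by receptors on the outer membrane (Mff, Mief1, Mief2 and Fis1) and constricts the organelle, and in fibroblasts the balance of both processes sets how long the tubules are.

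Libraries held 47164860 to 67991378 estimated counts. Normalized counts given below are these counts after scaling by TMM to a common library size. Lines were compared with edgeR's quasi-likelihood F test, fitted to the 12 libraries together, and a gene was called where its adjusted p was below 0.01 and its absolute log2 fold change above 0.5. Log2 fold changes are given with their standard error (SE). RNA was measured in bulk, so fewer cells with a transcript and less transcript per cell cannot be told apart. The comparisons of rho0, PKO-1 and PKO-6 against TM6 share the 3 TM6 libraries, and differences between these lines were therefore tested directly.

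*Pnpt1* itself was measured first as a check of the labels, with the limit that its counts cover the whole gene and not the excised exon alone. Its normalized counts were 2832, 3243 and 3320 in TM6, 5051, 5251 and 5510 in rho0, 1254, 1191 and 1276 for PKO-1, and 1897, 1720 and 2214 for PKO-6. The knockout libraries lay below every TM6 library, and the rho0 libraries above, with no overlap between any of the 4 lines. *Pnpt1* fell by 1.34 on the log2 scale in PKO-1 (SE 0.086, edgeR adjusted p = 1.25e-08, 3 of 3 libraries lower) and by 0.69 in PKO-6 (SE 0.084, edgeR adjusted p = 5.53e-06, 3 of 3 libraries lower).

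The label of fibroblasts was checked against 9 markers of fibroblasts or mesenchyme, of which 8 were tested. Their summed normalized counts averaged 570078 in TM6, 474065 in rho0, 626946 for PKO-1 and 374038 for clone PKO-6, and *Col1a1* was the most abundant in TM6 and *Fn1* in each of the other lines. The markers did not move together: *Fn1* averaged 113270, 237872, 259107 and 208419 in the same order, *Col1a1* 182206, 61619, 98095 and 38369, and *Col3a1* 4765, 476, 7011 and 329. *Thy1* was absent or nearly so, with at most 4.99 normalized counts in any library. Summed levels of 4 epithelial markers were 265 in TM6, 446 in rho0, 825 for PKO-1 and 118 for clone PKO-6, and *Krt18* was the most abundant of them in TM6, rho0 and PKO-1, with 242, 430, 816 and 8.00 over the 4 lines in that order. In PKO-6 it was *Epcam*, with 4.35, 8.15, 1.46 and 88.0. The 3 endothelial markers summed to 57.0, 15.3, 35.3 and 151 in the same order, mostly *Kdr*. For the 3 blood markers the sums were 91.9, 124, 96.7 and 186, mostly *Cd68*, with *Adgre1* at 0 in all 12 libraries. For the 3 muscle markers they were 9.82, 12.8, 50.0 and 43.8, mostly *Des*, with *Myog* at 0 in all 12 libraries. The 3 neural markers, mostly *Tubb3*, gave 166, 431, 520 and 176. The part of these differences between the lines in the results on fusion and fission genes was not tested.

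The share of counts held by *Rn45s*, the precursor of ribosomal RNA, differed between libraries of a line. It was 17.1%, 15.3% and 13.6% in TM6, 19.6%, 15.8% and 15.8% in rho0, 13.2%, 14.4% and 15.7% for PKO-1, and 17.8%, 19.2% and 12.2% for PKO-6. After each line was centred on its mean, log2 normalized counts correlated with this share over the 12 libraries at 0.91 for *Fis1*, 0.86 for *Mfn2*, 0.86 for *Mief2*, 0.83 for *Mief1*, 0.55 for *Oma1*, -0.00020 for *Mff*, -0.26 for *Mfn1*, -0.81 for *Opa1* and -0.90 for *Dnm1l*. Such correlations were common, with a median size of 0.59 over 11205 genes. The part of this share in the results was not tested.

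Few of the 9 genes passed both thresholds, although for most of them the libraries of a derived line and of TM6 did not overlap. In rho0 against TM6, 2 of 9 genes were called (22.2%), while 42.1% of all tested genes were called. Both called genes, *Mfn1* and *Fis1*, were lower, beside 21.4% of all genes called lower and 20.7% called higher. The libraries of rho0 and TM6 did not overlap for 6 of the 9 genes, as for 72.8% of all genes. In PKO-1 against TM6, edgeR called 0 of 9 genes, beside 34.3% of all genes, with 7 at an unadjusted p below 0.05 and 0 called by DESeq2. For all 9 genes the PKO-1 and TM6 libraries did not overlap, as for 71.8% of all genes. In PKO-6 against TM6, edgeR again called 0 of 9, beside 41.3% of all genes, with 6 at an unadjusted p below 0.05 and 0 called by DESeq2. Here 6 of the 9 genes did not overlap, as did 71.9% of all genes. With an adjusted p below 0.01 and no threshold on size, 6 of 9 genes passed in rho0, 4 with PKO-1 and 4 with PKO-6, beside 62.1%, 54.3% and 61.0% of all genes. The median log2 fold change over the 9 genes was -0.02 in rho0, 0.13 for PKO-1 and -0.09 for clone PKO-6, beside 0.018, 0.00086 and 0.014 over all tested genes.

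**Figure D1:**
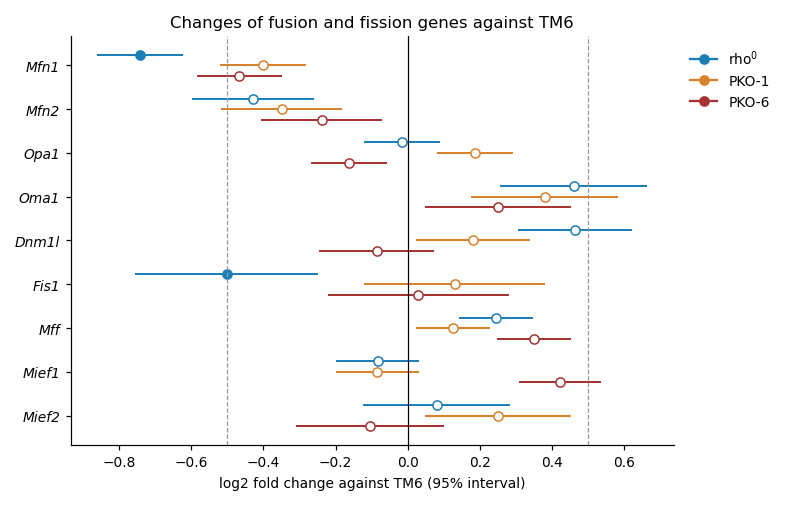
Log2 fold change of each of the 9 genes in rho0, PKO-1 and PKO-6 against TM6 on the horizontal axis, with 95% intervals from the edgeR fit; filled points were called and dashed lines mark -0.5 and 0.5. *Mfn1* and *Fis1* in rho0, at -0.74 and -0.50, are the filled points.

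On the fusion side, both mitofusin genes were lower in the 3 derived lines than in TM6, and the drop of *Mfn1* in rho0 was the only one called. *Mfn1*, which tethers and fuses outer membranes, had 3917, 4286 and 4166 normalized counts in the TM6 libraries, 2555, 2375 and 2469 in rho0, 3225, 3198 and 2942 for PKO-1, and 2882, 3014 and 3056 for PKO-6. TM6 was highest without overlap, rho0 was lowest without overlap, and the knockout clones lay between and overlapped each other. *Mfn1* fell by 40.2% in rho0, a log2 fold change of -0.74 (SE 0.054, 95% interval -0.86 to -0.62, edgeR adjusted p = 3.23e-08, 3 of 3 libraries lower). That call held in 19 of 19 alternatives at the same thresholds, at -0.79 to -0.57, and no member was called with an absolute log2 fold change above 1. Counts of alternatives below also leave out those that change the thresholds. In PKO-1 the log2 fold change was -0.40 (SE 0.054, edgeR adjusted p = 1.73e-05, 3 of 3 libraries lower), and in PKO-6 it was -0.47 (SE 0.054, edgeR adjusted p = 3.06e-06, 3 of 3 libraries lower). Neither reached the threshold on size. The PKO-6 value lies close to it and was called at -0.53 without TM6 replicate 1, at -0.51 without PKO-6 replicate 2, at -0.50 with TM6 and PKO-6 fitted alone, and at -0.53 with the median of each chromosome's genes removed. It was also called without rho0 replicate 1, 2 or 3, at -0.50 each time, which before rounding is just past the threshold.

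*Mfn2*, the second mitofusin, which also tethers mitochondria to the endoplasmic reticulum, had 8171, 7744 and 7747 normalized counts in the TM6 libraries, 6456, 5396 and 5719 in rho0, 6091, 6415 and 6072 for PKO-1, and 6686, 7370 and 6004 for PKO-6. All 9 libraries of the derived lines lay below the lowest TM6 library, and those 3 lines overlapped one another. The log2 fold change was -0.43 in rho0 (SE 0.077, edgeR adjusted p = 1.96e-04, 3 of 3 libraries lower), -0.35 for PKO-1 (SE 0.077, edgeR adjusted p = 0.00121, 3 of 3 lower) and -0.24 for PKO-6 (SE 0.076, edgeR adjusted p = 0.0129, 3 of 3 lower). None was called. In rho0 it was called at -0.52 without rho0 replicate 1 and at -0.58 with chromosome medians removed, which gave -0.36 in PKO-6.

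*Opa1*, which fuses inner membranes, differed in sign between the knockout clones. It had 6583, 6998 and 7166 normalized counts in the TM6 libraries, 6716, 6777 and 7017 in rho0, 8006, 7921 and 7689 for PKO-1, and 6115, 6036 and 6372 for PKO-6. The rho0 libraries lay within the range of TM6, while every PKO-1 library was above that range and every PKO-6 library below it. The log2 fold change was -0.02 in rho0 (SE 0.048, 95% interval -0.12 to 0.087, edgeR adjusted p = 0.769, with libraries on both sides of the TM6 mean). In PKO-1 it was 0.19 (SE 0.048, edgeR adjusted p = 0.00357, 3 of 3 higher) and in PKO-6 -0.16 (SE 0.048, edgeR adjusted p = 0.00750, 3 of 3 lower), both under the threshold on size. With chromosome medians removed the values were 0.03 in PKO-1 (adjusted p = 0.650), -0.15 in PKO-6 and -0.09 in rho0.

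*Oma1*, the protease of the inner membrane that cleaves Opa1, had few counts: 366, 398 and 425 in TM6, 602, 515 and 516 in rho0, 507, 526 and 512 for PKO-1, and 492, 494 and 427 for PKO-6, all normalized. The 9 libraries of the derived lines were above every TM6 library, by the smallest margin in PKO-6 replicate 3. Log2 fold changes were 0.46 in rho0 (SE 0.093, edgeR adjusted p = 5.39e-04, 3 of 3 higher), 0.38 for PKO-1 (SE 0.093, edgeR adjusted p = 0.00275, 3 of 3 higher) and 0.25 for PKO-6 (SE 0.093, edgeR adjusted p = 0.0275, 3 of 3 higher). None was called. Without TM6 replicate 3 the rho0 value was 0.51 and was called, and with chromosome medians removed the PKO-6 value was 0.13.

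On the fission side, rho0 had the most *Dnm1l* RNA and the least *Fis1* RNA of the 4 lines. *Dnm1l*, which encodes the GTPase Drp1, had 6854, 7682 and 8181 normalized counts in the TM6 libraries, 9976, 10666 and 10681 in rho0, 8985, 8531 and 8243 for PKO-1, and 7077, 6607 and 7709 for PKO-6. The rho0 libraries were above all others, the PKO-1 libraries came next and cleared TM6 narrowly, and PKO-6 overlapped TM6. The log2 fold change in rho0 was 0.46 (SE 0.072, edgeR adjusted p = 5.73e-05, 3 of 3 higher), which was not called, and 0.52 without TM6 replicate 3, which was. In PKO-1 the log2 fold change was 0.18 (SE 0.072, edgeR adjusted p = 0.0407, 3 of 3 higher), with 0.08 without TM6 replicate 1 (adjusted p = 0.336) and 0.02 with chromosome medians removed (adjusted p = 0.817). In PKO-6 it was -0.09 (SE 0.072, 95% interval -0.24 to 0.069, edgeR adjusted p = 0.303, with overlap).

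*Fis1*, a small tail-anchored protein of the outer membrane, had 3398, 3232 and 3120 normalized counts in the TM6 libraries, 2706, 2036 and 2138 in rho0, 3413, 3788 and 3466 for PKO-1, and 3482, 3757 and 2715 for PKO-6. The rho0 libraries were below all others, although rho0 replicate 1, with the highest share of *Rn45s* (19.6%), lay just under PKO-6 replicate 3, with the lowest (12.2%), and PKO-6 spanned the whole TM6 range. In rho0 *Fis1* fell by 29.4%, a log2 fold change of -0.50 (SE 0.116, 95% interval -0.75 to -0.25, edgeR adjusted p = 0.00152, 3 of 3 libraries lower). This value sits on the threshold: the call held in 15 of 19 alternatives and was lost without TM6 replicate 1 (-0.49), without rho0 replicate 2 (-0.45), without rho0 replicate 3 (-0.48) and with chromosome medians removed (-0.29). The log2 fold change was 0.13 in PKO-1 (SE 0.115, 95% interval -0.12 to 0.38, edgeR adjusted p = 0.34, 3 of 3 higher) and 0.03 in PKO-6 (SE 0.115, 95% interval -0.22 to 0.28, edgeR adjusted p = 0.830, with overlap), and neither was called. With chromosome medians removed the PKO-1 value was 0.04 and the PKO-6 value turned negative (-0.03).

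*Mff*, a main receptor of Drp1 on the outer membrane, separated all 4 lines in normalized counts. It had 2780, 2947 and 2827 normalized counts in the TM6 libraries, 3125, 3214 and 2988 in PKO-1, 3468, 3253 and 3410 in rho0, and 3624, 3637 and 3646 in PKO-6. Lines were ordered TM6, PKO-1, rho0 and PKO-6 from low to high with no overlap between neighbours. In TPM, the measure per length used further below, rho0 (61.3 to 67.7) and PKO-6 (64.0 to 73.4) overlapped. The sizes were small: log2 fold changes against TM6 were 0.35 in PKO-6 (SE 0.046, edgeR adjusted p = 1.19e-05, 3 of 3 higher), 0.24 in rho0 (SE 0.046, edgeR adjusted p = 3.25e-04, 3 of 3 higher) and 0.12 in PKO-1 (SE 0.046, edgeR adjusted p = 0.0304, 3 of 3 higher). None was called, and with chromosome medians removed the values were 0.14 in PKO-6, 0.13 in rho0 and -0.06 in PKO-1.

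*Mief1*, which encodes the receptor MiD51, stood out in PKO-6. It had 3516, 3416 and 3348 normalized counts in the TM6 libraries, 3432, 3226 and 3046 in rho0, 3205, 3258 and 3234 for PKO-1, and 4596, 4774 and 4405 for PKO-6. Every PKO-6 library was above all 9 others, PKO-1 lay just below TM6, and rho0 overlapped both, although in TPM rho0 (19.1 to 20.7) was just below TM6 (20.8 to 21.8). The log2 fold change in PKO-6 was 0.42 (SE 0.052, edgeR adjusted p = 5.50e-06, 3 of 3 higher), under the threshold on size, and 0.51 with chromosome medians removed, which was called. It was -0.08 in rho0 (SE 0.052, edgeR adjusted p = 0.164, with overlap) and -0.08 in PKO-1 (SE 0.052, edgeR adjusted p = 0.170, 3 of 3 lower). Both turned positive with chromosome medians removed, to 0.30 and 0.15.

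*Mief2*, which encodes the related receptor MiD49, had 512, 505 and 477 normalized counts in the TM6 libraries, 593, 505 and 480 in rho0, 577, 564 and 635 for PKO-1, and 471, 491 and 428 for PKO-6. PKO-1 was above TM6 without overlap, and rho0 and PKO-6 overlapped TM6, although in TPM PKO-6 (5.73 to 5.81) was below TM6 (6.20 to 6.66). The log2 fold change was 0.08 in rho0 (SE 0.093, edgeR adjusted p = 0.453, with overlap), 0.25 for PKO-1 (SE 0.093, edgeR adjusted p = 0.0301, 3 of 3 higher) and -0.10 for PKO-6 (SE 0.093, edgeR adjusted p = 0.334, with overlap), and none was called. With chromosome medians removed the PKO-6 value was -0.04. *Mief2* shares its strand with the overlapping gene *Mir5100*, so its counts carry some uncertainty.

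**Figure D2:**
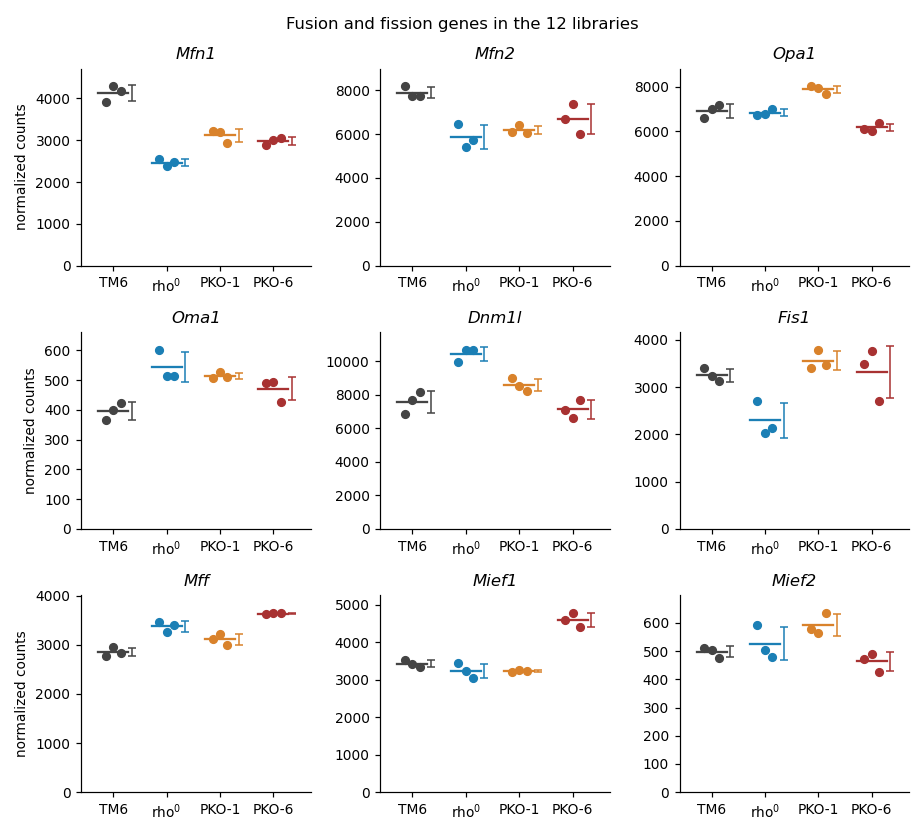
Normalized counts (vertical axis) of the 9 genes in the 4 lines (horizontal axis), with 1 point per library, a bar at the mean and an error bar of 1 SD (n = 3). *Mfn1* is lowest in rho0 at 2375 to 2555, *Dnm1l* is highest there at 9976 to 10681, and *Mief1* is highest in PKO-6 at 4405 to 4774.

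The knockout clones were also compared with each other, since both lost the same exon. Of the 9 genes 1 was called, *Mief1*, beside 29.1% of all genes, and 6 did not overlap, as did 66.5% of all genes. *Mief1* in PKO-1 had a log2 fold change of -0.51 against PKO-6 (SE 0.052, edgeR adjusted p = 1.49e-06, 3 of 3 libraries lower). The call was lost without PKO-6 replicate 2 (-0.48) and with chromosome medians removed (-0.36). *Opa1* and *Mief2* were higher in PKO-1 without overlap, at 0.35 (SE 0.048, edgeR adjusted p = 2.43e-05, 3 of 3 higher) and 0.35 (SE 0.093, edgeR adjusted p = 0.00468, 3 of 3 higher), and neither was called. With chromosome medians removed they were 0.15 and 0.22.

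Each clone was then compared with rho0, a line that still has its *Pnpt1* exon 2. In PKO-1 against rho0, 1 of 9 genes was called, beside 32.7% of all genes, and 5 did not overlap, as did 69.5% of all genes. *Fis1* was higher in PKO-1 by 0.63 (SE 0.116, edgeR adjusted p = 3.26e-04, 3 of 3 libraries higher), and this call was lost with chromosome medians removed (0.31). In PKO-6 against rho0, 3 of 9 genes were called (33.3%), beside 21.5% of all genes, and 7 did not overlap, as did 56.7% of all genes. *Dnm1l* had a log2 fold change of -0.55 in PKO-6 (SE 0.072, edgeR adjusted p = 2.67e-05, 3 of 3 lower), and this call too was lost with chromosome medians removed (-0.44). *Fis1* was higher in PKO-6 by 0.53 (SE 0.116, edgeR adjusted p = 0.00168, 3 of 3 higher), and the call was lost without rho0 replicate 2 (0.44), rho0 replicate 3 (0.47), PKO-6 replicate 1 (0.48) or PKO-6 replicate 2 (0.42), and with chromosome medians removed (0.27). *Mief1* was higher in PKO-6 by 0.51 (SE 0.052, edgeR adjusted p = 2.59e-06, 3 of 3 higher). That value lies on the threshold and was called in 10 of 18 alternatives: the calls were lost with DESeq2's size factors (0.49), with DESeq2's Wald test (0.49), with chromosome medians removed (0.18), and without TM6 replicate 1 (0.49), rho0 replicate 2 (0.49), rho0 replicate 3 (0.45), PKO-6 replicate 1 (0.49) or PKO-6 replicate 2 (0.46). *Mfn1* was higher in the clones than in rho0, at 0.34 for PKO-1 (SE 0.054, edgeR adjusted p = 1.00e-04, 3 of 3 higher) and 0.27 for PKO-6 (SE 0.054, edgeR adjusted p = 7.94e-04, 3 of 3 higher), and neither was called. With chromosome medians removed they were 0.14 and 0.02 (adjusted p = 0.0406 and 0.761).

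With both clones pooled as 1 knockout group of 6 libraries, edgeR called 0 of the 9 genes against TM6, beside 25.7% of all genes, with 4 at an unadjusted p below 0.05 and 0 called by DESeq2. Pooling adds the gap between the clones to the spread, with a biological coefficient of variation of 0.248 instead of 0.0837. The 6 libraries are cultures of both clones, 3 of each, and the pooled fit treats them as independent. *Mfn1* had the largest pooled log2 fold change of the 9, at -0.43 (SE 0.055, edgeR adjusted p = 6.50e-05, 6 of 6 libraries lower). It was called at -0.50 without TM6 replicate 1 and at -0.51 with chromosome medians removed. *Opa1*, with clones on either side of TM6, had a pooled value of 0.02 (SE 0.101, edgeR adjusted p = 0.876, 3 of 6 libraries above every TM6 library).

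Levels of different genes were compared per length, in TPM, a transcript abundance corrected for length and scaled to the same total in each library, summed over a gene's transcripts. *Fis1* was the most abundant of the 9 in every line, with 161 ± 5.67 TPM in TM6 (SD, n = 3), 110 ± 7.93 in rho0, 169 ± 4.38 for PKO-1 and 156 ± 14.3 for clone PKO-6. In TM6 it was followed by *Dnm1l* at 59.8 ± 5.20 TPM, *Mff* at 55.9 ± 1.42 and *Mfn2* at 55.6 ± 2.05. Libraries of *Dnm1l* and *Mff* overlapped in TM6, as did those of *Mff* and *Mfn2*, so these neighbours did not differ beyond their spread. Below them in TM6 came *Opa1* at 36.2 ± 1.49 TPM, *Mfn1* at 28.7 ± 1.12 and *Mief1* at 21.2 ± 0.590, each apart from its neighbours. *Oma1* at 7.13 ± 0.541 TPM and *Mief2* at 6.45 ± 0.232 were the lowest and overlapped. For scale, the median over the 11328 genes with a median TPM of at least 1 was 19.5.

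The order changed in few places between lines. In rho0, *Dnm1l* at 81.6 ± 8.77 TPM (SD, n = 3) stood apart from *Mff* at 65.0 ± 3.31, followed by *Mfn2* at 40.6 ± 0.974. *Mfn1* had more TPM than *Mief1* in TM6 and PKO-1 and less in rho0 and PKO-6: 16.9 ± 0.698 against 19.7 ± 0.859 in rho0, and 20.1 ± 1.71 against 27.3 ± 0.746 in PKO-6. In PKO-6 *Mff* came before *Dnm1l*, at 67.7 ± 5.06 and 54.5 ± 7.76 TPM, with the libraries apart. In rho0, PKO-1 and PKO-6 no neighbours in the order overlapped. Some lines that were apart in normalized counts overlapped in TPM: PKO-1 and TM6 for *Dnm1l* and *Fis1*, both clones for *Dnm1l*, and PKO-6 and rho0 for *Opa1* and *Mff*. Others that overlapped in normalized counts were apart in TPM: PKO-6 was below TM6 and rho0 for *Mief2* and above rho0 and PKO-1 for *Mfn2*, rho0 was below TM6 for *Mief1*, and PKO-1 was below rho0 for *Oma1*. TPM was scaled to a total that includes *Rn45s*, and the overlap of the clones for *Dnm1l* rests on PKO-6 replicate 3, at 63.0 TPM and 12.2% *Rn45s*, beside 52.7 and 47.8 TPM in the other replicates.

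Transcripts were examined next, because 5 of the 9 genes have more than 1 transcript in the table the counts were made with: *Mfn2* 5, *Opa1* 2, *Dnm1l* 5, *Fis1* 2 and *Mff* 4. Shares of these 18 transcripts in their gene were tested with edgeR's test of transcript usage among 10261 transcripts. Of the 18, 1 had a changed share in rho0 against TM6, beside 3.63% of all transcripts tested. In PKO-1 against TM6, edgeR called 0, beside 2.37% of all, with 4 at an unadjusted p below 0.05 and 2 called by limma. In PKO-6 against TM6 edgeR called 1, beside 2.98% of all, and in PKO-1 against PKO-6 it called 1, beside 1.45%. The estimate of each transcript's count from shared reads has an error of its own that the test does not include, and a share that was not called is not shown to be equal. Relative changes by limma are on another scale than those by edgeR. For the 2 *Opa1* transcripts in PKO-1 against PKO-6, limma gave 0.636 and -0.636, and edgeR 0.501 and -0.131. The threshold of 0.5 is thus not the same for both tools, and their values are not compared in size.

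The called transcript in PKO-6 against TM6 was that of *Mff* without a 60-base exon. The exon lies at chr1:82747083-82747142 (GRCm38, plus strand), is wholly coding, holds 20 codons and is left out only of transcript NM_001310699.1. Transcripts with the exon made up 55.6%, 51.4% and 50.2% of *Mff* TPM in the TM6 libraries, 58.1%, 57.7% and 62.0% in rho0, 65.3%, 64.2% and 58.1% for PKO-1, and 73.1%, 71.6% and 66.6% for PKO-6. Every library of a derived line was above TM6 and every PKO-6 library was above all others, while rho0 and PKO-1 overlapped. The transcript without the exon accordingly held 47.6% ± 2.82 of *Mff* TPM in TM6 (SD, n = 3) and 29.6% ± 3.40 in PKO-6. Its change relative to the gene's transcripts was -0.71 on the log2 scale in PKO-6 (edgeR adjusted p = 9.65e-05, 3 of 3 libraries lower). It was called in 15 of 15 alternatives, at -0.81 to -0.64 with a library left out and at -1.13 on limma's scale. In PKO-1 it was -0.36 (edgeR adjusted p = 0.158, 3 of 3 lower), not called by edgeR but called by limma at -0.59. In rho0 it was -0.23 (edgeR adjusted p = 0.502, 3 of 3 lower). Tested directly, PKO-1 against PKO-6 gave 0.35 (edgeR adjusted p = 0.244, 3 of 3 higher), so a difference between the clones was not called by edgeR, and limma called it at 0.54.

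A second *Mff* exon of 159 bases, at chr1:82741818-82741976, holds 53 codons and belongs to transcript NM_029409.3 alone. That transcript made up 14.96%, 11.97% and 12.8% of *Mff* TPM in TM6, 13.2%, 15.9% and 15.96% in rho0, 16.1%, 18.3% and 12.9% for PKO-1, and 21.95%, 22.7% and 19.2% for PKO-6. PKO-6 was above every other library and the other lines overlapped, and the relative change in PKO-6 against TM6, 0.66, was not called by edgeR (adjusted p = 0.0551, 3 of 3 higher), while limma called it at 0.80 and called the difference between PKO-1 and PKO-6 at -0.54. Transcript NM_001310697.1, with the 60-base exon and without the 159-base exon, held 8.67% ± 0.604 of *Mff* TPM in TM6, 10.6% ± 1.53 in rho0, 13.5% ± 1.56 for PKO-1 and 16.4% ± 0.562 for clone PKO-6 (SD, n = 3). Its relative change in PKO-6 against TM6 was 0.90 (edgeR adjusted p = 0.0364, 3 of 3 higher) and in PKO-1 0.62 (edgeR adjusted p = 0.269, 3 of 3 higher), neither called by edgeR, while limma called both, at 1.01 and 0.68. Transcript NM_001310695.1 also has the 60-base exon and not the 159-base exon, with an exon of 92 bases where NM_001310697.1 has 89. It held 30.5% ± 1.01 of *Mff* TPM in TM6, 33.6% ± 3.60 in rho0, 33.3% ± 1.51 for PKO-1 and 32.7% ± 2.26 for clone PKO-6. The relative change of NM_001310695.1 in PKO-6 against TM6 was 0.08 by edgeR and 0.11 by limma, and neither called it. The exons of 60 and 159 bases are shown because the share of *Mff* that holds them differed most in PKO-6. Capitals mark the exon, lower case its 15 neighbouring bases on each side in the spliced transcript, and the last line is the junction formed without the 60-base exon (GENCODE vM21 transcripts, GRCm38).
Mff 60-base exon: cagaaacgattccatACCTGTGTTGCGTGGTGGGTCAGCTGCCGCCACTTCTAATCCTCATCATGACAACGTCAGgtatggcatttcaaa
Mff 159-base exon: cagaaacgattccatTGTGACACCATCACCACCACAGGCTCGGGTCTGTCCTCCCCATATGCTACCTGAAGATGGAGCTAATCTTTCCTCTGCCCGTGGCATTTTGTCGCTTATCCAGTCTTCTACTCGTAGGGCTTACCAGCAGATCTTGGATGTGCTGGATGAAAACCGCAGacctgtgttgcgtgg
Mff without the 60-base exon: cagaaacgattccatgtatggcatttcaaa

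**Figure D3:**
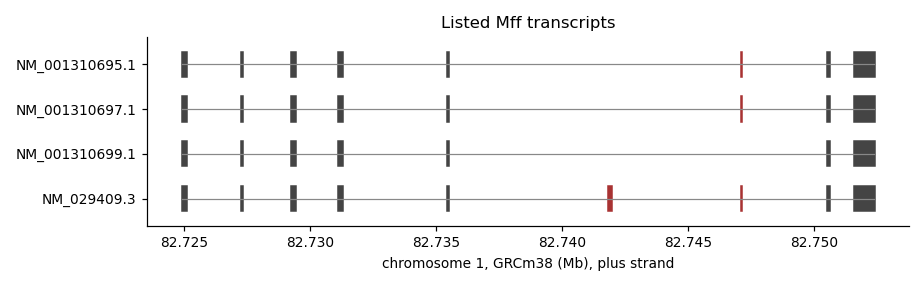
The 4 listed *Mff* transcripts drawn to scale on chromosome 1 of GRCm38, plus strand, with position in Mb on the horizontal axis, boxes for exons and lines for introns. The exons of 60 and 159 bases are red, and NM_001310699.1 has neither.

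*Opa1* has 1 exon that differs between its transcripts, of 54 bases (18 codons) at chr16:29588823-29588876 on the plus strand, present in NM_001199177.1. The transcript with it held 19.7%, 23.4% and 23.1% of *Opa1* TPM in TM6, 19.97%, 20.4% and 24.6% in rho0, 23.1%, 26.7% and 23.4% for PKO-1, and 16.3%, 18.6% and 16.8% for PKO-6. PKO-6 was lowest without overlap, and the other lines overlapped. The share was called between the clones, with a relative change of 0.50 in PKO-1 against PKO-6 (edgeR adjusted p = 0.00868, 3 of 3 higher). This call held in 5 of 15 alternatives, with adjusted p up to 0.138, and was lost without any 1 of TM6 replicates 2 and 3 (0.50), rho0 replicates 2 and 3 (0.50), PKO-1 replicates 1 (0.54), 2 (0.43) and 3 (0.53), and PKO-6 replicates 1 (0.46), 2 (0.56) and 3 (0.48).

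*Dnm1l* had its called change in a transcript that RefSeq lists as non-coding, NR_075074.1, the only one with a 78-base exon at chr16:16318764-16318841 on the minus strand. Its share of *Dnm1l* TPM was 10.7%, 11.5% and 8.48% in TM6, 16.2%, 14.9% and 15.6% in rho0, 11.5%, 11.6% and 11.9% for PKO-1, and 13.9%, 13.7% and 11.01% for PKO-6. The rho0 libraries were above all others, and the other 3 lines overlapped. The relative change in rho0 against TM6 was 0.61 (edgeR adjusted p = 0.00854, 3 of 3 higher). It held in 6 of 15 alternatives, with adjusted p up to 0.118, and was lost without any 1 of TM6 replicates 1 (0.64) and 3 (0.48), rho0 replicates 1 (0.58), 2 (0.64) and 3 (0.61), PKO-1 replicate 1 (0.61), and PKO-6 replicates 1 (0.61) and 2 (0.61), and with a replicate block (0.61, adjusted p = 0.0159). A 39-base coding exon of *Dnm1l* (13 codons, chr16:16342697-16342735, in NM_152816.3 only) was in 4.38% ± 0.853 of *Dnm1l* TPM in TM6, 7.58% ± 0.125 in rho0, 6.88% ± 0.593 for PKO-1 and 4.23% ± 0.193 for clone PKO-6 (SD, n = 3). Its libraries in rho0 and PKO-1 were above those of TM6 and PKO-6, and its relative change in rho0, 0.79, was not called (edgeR adjusted p = 0.0429, 3 of 3 higher). These exons, with the same use of capitals and the same source, read 5′ to 3′ on the strand of the gene as follows.
Opa1 54-base exon: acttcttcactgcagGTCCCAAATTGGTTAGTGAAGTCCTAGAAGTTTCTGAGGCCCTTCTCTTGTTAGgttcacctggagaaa
Dnm1l 78-base exon: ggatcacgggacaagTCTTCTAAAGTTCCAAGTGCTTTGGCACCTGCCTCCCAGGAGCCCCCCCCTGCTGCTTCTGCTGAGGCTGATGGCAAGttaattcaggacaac
Dnm1l 39-base exon: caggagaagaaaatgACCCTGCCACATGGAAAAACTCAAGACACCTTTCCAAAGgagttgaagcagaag

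**Figure D4:**
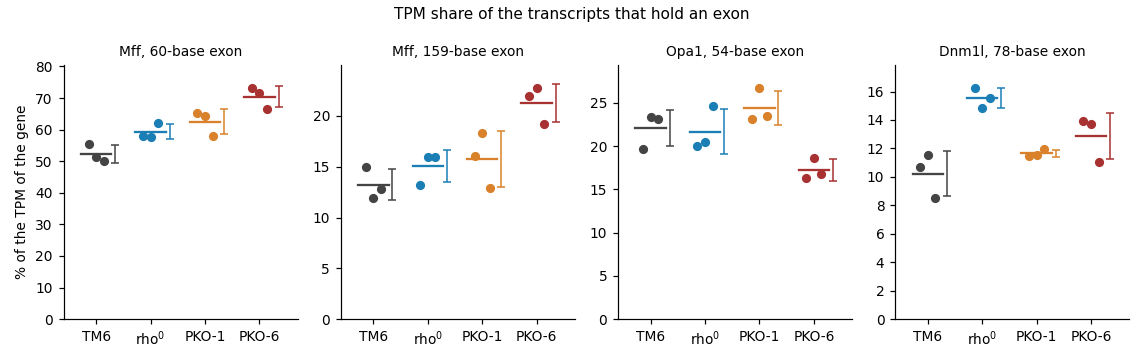
Share of a gene's TPM (vertical axis, %) held by the transcripts with each of 4 exons, in the 4 lines (horizontal axis), with 1 point per library, a bar at the mean and an error bar of 1 SD (n = 3). Transcripts with the 60-base exon of *Mff* hold 50.2% to 55.6% in TM6 libraries and 66.6% to 73.1% in PKO-6 libraries.

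In *Fis1* and *Mfn2* no change of a transcript's share was called. *Fis1* is transcribed from an upstream first exon in NM_001163243.1, which held 5.52% ± 0.859 of *Fis1* TPM in TM6, 10.0% ± 1.33 in rho0, 5.72% ± 0.477 for PKO-1 and 8.13% ± 1.15 for clone PKO-6 (SD, n = 3). The rho0 and PKO-6 libraries were above those of TM6 and PKO-1, and the relative change in rho0 against TM6 was 0.82 (edgeR adjusted p = 0.260, 3 of 3 higher). *Mfn2* was nearly all NM_133201.3, at 89.5% to 97.1% of its TPM over the 12 libraries, and its least abundant transcript, NM_001285921.1, had at most 27.4 expected counts in a library, too few for its relative changes to be given. *Mfn1*, *Oma1*, *Mief1* and *Mief2* have 1 listed transcript each.

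The 9 genes lie on 7 chromosomes of GRCm38, and whole chromosomes differed between the lines, so each gene was set beside its neighbours. *Mief1* lies at chr15:80234080-80253371, where the median log2 fold change of 560 tested genes was -0.38 in rho0, -0.23 for PKO-1 and -0.09 for clone PKO-6 against TM6. The median in PKO-6 against rho0 there was 0.32, and *Mief1* itself differed by 0.51. *Fis1* lies at chr5:136953275-136966234, with a median over 876 genes of -0.21 in rho0, 0.09 for PKO-1 and 0.06 for clone PKO-6 against TM6, and of 0.32 and 0.26 for PKO-1 and PKO-6 against rho0. *Mfn1* lies at chr3:32529482-32579225, with a median over 684 genes of -0.17, 0.04 and 0.06 in rho0, PKO-1 and PKO-6. *Mfn2* (chr4:147873586-147904909) and *Oma1* (chr4:103313846-103366428) share a chromosome whose 893 genes had medians of 0.15, -0.04 and 0.12 in the same order. *Opa1* (chr16:29579334-29654602) and *Dnm1l* (chr16:16312228-16359031) share a chromosome with medians of 0.08, 0.16 and -0.01 over 444 genes. For *Mff* (chr1:82724890-82752389) the medians over 792 genes were 0.11, 0.18 and 0.21, and for *Mief2* (chr11:60728398-60732951) they were 0.0078, 0.04 and -0.06 over 1140 genes. The part of these chromosome-wide differences in the members' values was not tested beyond the values given above with chromosome medians removed.

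Among themselves the 9 genes varied less than most. The range of line means on the log2 scale was 0.74 for *Mfn1*, 0.64 for *Fis1*, 0.55 for *Dnm1l*, 0.51 for *Mief1*, 0.46 for *Oma1* and 0.43 for *Mfn2*, and 0.35 for each of *Opa1*, *Mff* and *Mief2*. All lay under 0.78, the median of that range over all tested genes. Patterns over the 12 libraries were compared as the root mean square difference of log2 values after each gene was centred on its own mean. The closest pair was *Opa1* and *Mief2* (0.12), followed by *Mfn1* and *Mfn2* (0.15), and the farthest was *Dnm1l* and *Fis1* (0.48).

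By the same measure over the 12 libraries, the closest of 11204 genes to *Mfn1* were *Slain2* (0.033) and *Dpy19l1* (0.053), and to *Mfn2* they were *Vta1* (0.040) and *Trappc3* (0.041), the latter on chromosome 4 like *Mfn2*. *Opa1* was closest to *Ckap5* (0.023) and *Pus7* (0.031), and *Oma1* to *Becn1* (0.064) and *Tbcd* (0.064). *Dnm1l* was closest to *Pcm1* (0.049) and *Braf* (0.062), *Fis1* to *Myeov2* (0.065), and *Mff* to *Polr3c* (0.045) and *Tsg101* (0.046). *Mief1* was closest to *Klf3* (0.049) and to *Fam173b* (0.057), on chromosome 15 like *Mief1*, and *Mief2* to *Akt2* (0.059) and *H6pd* (0.068). The median difference from a member to all these genes was 0.30 to 0.39.

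Another 48 genes of mitochondrial dynamics were examined as a list, and 47 were tested. In rho0 against TM6, 8 were called higher and 8 lower, beside 20.7% and 21.4% of all tested genes, with a median log2 fold change of 0.06. In PKO-1, 5 were called higher and 5 lower, beside 16.4% and 17.9% of all, with a median of 0.0064. In PKO-6, 5 were called higher and 6 lower, beside 21.9% and 19.4% of all, with a median of 0.02. By role, the accessory factors of fusion had 3 of 6 genes called higher and 1 lower in rho0, those of fission had 1 of 8 tested genes called, lower, and genes of cristae had 1 of 9 higher and 3 lower. Among 7 genes of Opa1 processing and prohibitins 1 was called higher and 1 lower in rho0, among 6 of ubiquitin or SUMO control 1 was called, higher, among 6 kinases and phosphatases 2 higher and 1 lower, and among 5 of transport along microtubules 1, lower. In PKO-1, edgeR called 1 higher and 0 lower for fusion, 1 and 1 for fission, and 1 and 2 for cristae. It called 0 and 0 for Opa1 processing, 0 and 0 for ubiquitin or SUMO control, 1 and 0 for kinases and phosphatases, and 1 and 2 for transport. In PKO-6 these counts were 1 and 1, 0 and 1, 1 and 2, 0 and 0, 1 and 0, 2 and 1, and 0 and 1 in the same order.

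Of the 47 genes, 5 were called in the same direction in rho0, PKO-1 and PKO-6, all with TM6 apart from the 9 other libraries. That is 10.6%, beside 17.5% of all tested genes called in the same direction in these comparisons, which share the TM6 libraries. TM6 was also apart for 2455 of the 2460 tested genes called in this way, so its being apart adds nothing to the calls. *Ppp3ca*, the catalytic subunit of calcineurin, which dephosphorylates Drp1, rose by 0.77 in rho0 (SE 0.063, edgeR adjusted p = 9.44e-08, 3 of 3 higher), by 0.88 in PKO-1 and by 0.97 in PKO-6. *Trak2*, an adaptor of mitochondria to motor proteins, fell in all 3 lines, with log2 fold changes of -0.59 in rho0, -0.54 for PKO-1 and -0.57 for clone PKO-6. *Slc25a46*, an outer membrane protein tied to fusion and cristae, rose by 0.69, 0.92 and 0.67, beside chromosome 18 medians of 0.42, 0.42 and 0.34. The MICOS subunit genes *Apoo* and *Apool*, both on chromosome X, also fell in all 3 lines. *Apoo* had log2 fold changes of -1.44, -0.85 and -1.10 and *Apool* of -0.63, -0.77 and -0.90 in the same order, beside chromosome X medians of -0.75, -0.74 and -0.87.

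The largest change in each remaining role was as follows. *Fam73a*, which encodes the fusion factor mitoguardin 1, rose by 1.27 in rho0 (SE 0.081, edgeR adjusted p = 8.24e-09, 3 of 3 higher), from 572 ± 32.4 normalized counts in TM6 to 1377 ± 67.7 (SD, n = 3). The related and in TM6 more abundant *Fam73b* went the other way in rho0, at -0.76 (SE 0.073, edgeR adjusted p = 4.91e-07), also called. It averaged 1690 normalized counts in TM6 and 996 in rho0. *Mtfr2*, a fission regulator, fell by 0.98 in rho0 (SE 0.070, edgeR adjusted p = 2.66e-08, 3 of 3 lower), with -0.72 in PKO-6, also called. *Prkaa2*, a catalytic subunit of AMPK, the kinase that phosphorylates Mff, rose by 1.25 in PKO-6 (SE 0.102, edgeR adjusted p = 8.31e-08, 3 of 3 higher) and by 0.94 in rho0. In PKO-1 its value was 0.35, not called, and the difference of PKO-1 from PKO-6, -0.90, was called. *Trak1* fell by 1.03 in PKO-1 (SE 0.046, edgeR adjusted p = 2.56e-10, 3 of 3 lower), beside a chromosome 9 median of -0.39 there. In PKO-6 its value was -0.40, not called, and the difference of PKO-1 from PKO-6, -0.63, was called. *Phb*, a prohibitin, fell by 0.56 in rho0 (SE 0.110, edgeR adjusted p = 4.03e-04, 3 of 3 lower). *Park2*, the ubiquitin ligase Parkin, had 1.72 in rho0 (SE 0.625, edgeR adjusted p = 0.0241, 3 of 3 higher) and was not called, with libraries of all lines spread from 363 to 4349 normalized counts.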

How the data were processed

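Libraries came from 4 MEF lines in biological triplicate (n = 3). The authors removed ribosomal RNA, made stranded libraries in technical duplicate, sequenced them, merged the reads and estimated transcript abundance with RSEM 1.2.25 (bowtie2, GRCm38, RefSeq). The deposited gene values are expected counts, not normalized, and were rounded to whole numbers. The deposited transcript values include TPM, which the authors' RSEM run scaled per library, and these were used for levels per length and for shares of a gene. In R 4.3.3, edgeR 4.0.16 filtered genes (filterByExpr, minimum count 10), scaled libraries by TMM and tested 4 lines in 1 quasi-likelihood fit, and knockout clones pooled in another, with Benjamini-Hochberg adjustment over all 14026 genes. Transcript usage was tested with diffSpliceDGE. An SE is the size of the log2 fold change divided by the square root of F. Exon coordinates are those deposited with the transcripts. Genes named are the 9 members, *Pnpt1*, cell type markers, other dynamics genes called in the same direction in 3 lines or largest in their role, and the nearest 1 or 2 patterns per member among genes averaging 100 normalized counts or more. *Mir5100* is named as an overlapping gene, and *Rn45s* was chosen after its values were seen. *Ppp3cb*, *Fam73b* and *Prkaa1* are named beside a related gene of their role, also after their values were seen. Members and lists were chosen with earlier results of these data known. Tests were tried on simulated data, from which no result here is drawn. Alternatives were DESeq2 1.42.0 (size factors, Wald test), limma 3.58.1, other filters and thresholds, compared groups alone, chromosome medians removed, a replicate block and each library left out.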

Additional observations from a re-analysis of the deposited data

Results flagged for a closer look

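A gene's change against TM6 differed between lines by a direct test in 5 cases. *Mief1* differed between the knockout clones, PKO-1 against PKO-6, by -0.51 on the log2 scale. *Fis1* differed between PKO-1 and rho0 by 0.63 and between PKO-6 and rho0 by 0.53. *Dnm1l* differed between PKO-6 and rho0 by -0.55, and *Mief1* by 0.51. All 5 were called by edgeR with the libraries of the compared lines apart, and all 5 calls were lost with chromosome medians removed, at -0.356, 0.311, 0.271, -0.443 and 0.184 in the order above. At the same thresholds, *Mief1* in PKO-6 against rho0 was called in 10 of 18 alternatives and *Fis1* there in 13 of 18.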

How the results depend on the processing

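Of 1143 log2 fold changes of members under alternatives at the same thresholds, 1079 kept their sign and their side of the thresholds, 29 changed sign, 14 gained a call and 21 lost one. Of 189 with other thresholds, 54 gained a call and 7 lost one. With an adjusted p below 0.05 alone, genes called numbered 10088 in rho0, 9038 in PKO-1, 9829 in PKO-6 and 6759 in pooled PKO against TM6, 8611 in PKO-1 against PKO-6, and 9252 in PKO-1 and 7646 in PKO-6 against rho0, and members 6, 7, 6, 4, 5, 5 and 6 in that order. Below 0.01 alone they were 7611 in PKO-1 against TM6, 7014 between the clones, and 7561 and 5704 in PKO-1 and PKO-6 against rho0, with members 6, 4, 4 and 2 in rho0, PKO-1, PKO-6 and pooled PKO against TM6, 5 between the clones and 4 in PKO-1 against rho0. With an absolute log2 fold change above 1 they were 2944, 2274, 3038, 1788, 1950, 2202 and 1510 in the first order, with 0 members by edgeR in rho0 against TM6 (6 at an unadjusted p below 0.05 and 2 called by DESeq2 at 0.5), between the clones (5 and 1), in PKO-1 against rho0 (5 and 1) and in PKO-6 against rho0 (8 and 2). Looser thresholds admit more genes by construction. The number of all genes called below 0.01 alone in pooled PKO is not given here. The 2 members called there are therefore not compared with that number. With only the compared groups fitted, 1 member was called in PKO-6 against TM6, *Mfn1* at -0.50, and *Fis1* there was -0.00498. The share of all genes called in that fit is not given here, so this count is not compared with it. In the fit of all 12 libraries the share was 41.3%.

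With chromosome medians removed, members called were 2 in PKO-6 and 1 in pooled PKO against TM6, and 0 by edgeR between the clones (5 at an unadjusted p below 0.05 without the removal), in PKO-1 against rho0 (5) and in PKO-6 against rho0 (8), where DESeq2 without the removal called 1, 1 and 2. The share of all genes called with the removal is not given here, so these counts are not compared with it. Signs turned for *Mief1* in rho0 (0.296) and PKO-1 (0.149), *Mff* in PKO-1 (-0.0592) and *Fis1* in PKO-6 (-0.0311) against TM6, *Mfn2* in PKO-1 against PKO-6 (0.0622), *Oma1* in PKO-1 against rho0 (0.135), and pooled *Opa1* (-0.0905), *Dnm1l* (-0.0591) and *Fis1* (-0.0207). The cause was not tested. Limma called 2, 3 and 4 member transcripts in PKO-1 against TM6, PKO-6 against TM6 and PKO-1 against PKO-6. Over all transcripts limma called 1278, 1016, 1267 and 550 where edgeR called 372, 243, 306 and 149 (rho0, PKO-1 and PKO-6 against TM6, and between the clones). The cause was not tested.

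For single lines against TM6, values over 0.1 in size that were not called and moved by over 1.5 times without 1 library were *Opa1* (to 0.122), *Dnm1l* (0.0844) and *Mff* (0.0765) in PKO-1 and *Oma1* in PKO-6 (0.162), each without TM6 replicate 1, *Fis1* in PKO-1 without its replicate 2 (0.0815), and *Mief2* in PKO-6 without its replicate 2 (-0.180) or 3 (-0.0508).

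With each library left out, members called ranged from 1 to 4 in rho0, 0 to 1 in PKO-6 and 0 to 1 in pooled PKO against TM6, 0 to 1 between the clones and 1 to 3 in PKO-6 against rho0, and member transcripts from 0 to 1 in rho0 against TM6 and from 0 to 1 between the clones. The share of all transcripts called in these fits is not given here. Over all genes, those called ranged from 5566 to 6237 in rho0 and 5624 to 5899 in PKO-6 against TM6. They ranged from 2867 to 3709 in pooled PKO against TM6, 3807 to 4148 between the clones and 2687 to 3358 in PKO-6 against rho0. Small log2 fold changes crossed 0: *Opa1* (-0.0674 to 0.00978) and *Mief2* (-0.0264 to 0.121) in rho0 and *Fis1* in PKO-6 (-0.101 to 0.155) against TM6, *Fis1* between the clones (-0.0251 to 0.199), *Mief1* in PKO-1 against rho0 (-0.0541 to 0.0229), and pooled *Opa1* (-0.0432 to 0.0487) and *Dnm1l* (-0.0443 to 0.113).

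Replicate numbers are not shown to pair the libraries over the 4 lines: correlations of same-numbered deviations were -0.385 to 0.250 over 18 pairs, with 10 over 0.1, and 15 of 36 best matches had their own number. In PKO-6 against TM6 alone all 3 same-numbered pairs lay at 0.209 to 0.250 and all 6 others at -0.231 to -0.00812. With a replicate block, genes called went from 5902 to 5849 in rho0, 4810 to 4761 in PKO-1, 5799 to 5776 in PKO-6 and 3607 to 3113 in pooled PKO against TM6, with no change in the members' counts. *Mief1* in PKO-1 against rho0 was 0.000284 with the block. Member transcripts called in rho0 against TM6 were 0 by edgeR with the block (4 at an unadjusted p below 0.05 and 1 by limma without it). Without the block 3.63% of all transcripts were called, and the share with it is not given here.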
